A study of Saccharomyces pastorianus with 18 samples.

Results

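The balance between the S. cerevisiae and the S. eubayanus copy of each gene was described in the lager yeast Saccharomyces pastorianus W34/70 9.7 during exponential growth in minimal medium. A gene pair is a gene symbol that occurs once in each sub-genome, and it was kept when each copy had a mean of at least 10 counts over the 3 libraries. This gave 3999 pairs of 4386 symbols found once in each sub-genome, in a table of 11979 features (6600 S. cerevisiae and 5379 S. eubayanus). The copy ratio of a pair is the log2 ratio of counts per kb, S. cerevisiae over S. eubayanus, so 1 means a 2-fold higher S. cerevisiae copy and -1 a 2-fold higher S. eubayanus copy. Of the 387 symbols left out, 293 were under the minimum on the S. eubayanus copy only, 52 on the S. cerevisiae copy only and 42 on both, among them 9 mitochondrial pairs.

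W34/70 9.7 is a single mutant clone, and its parent was not analysed here. It was obtained from W34/70 by exposure to radicicol (20, 40 or 100 µg/mL), a compound that blocks Hsp90. Selection used 1 of 2 analogues of phenylalanine, B2TA at 75 µg/mL or PFPA at 200 µg/mL, and the labels do not give which dose or analogue yielded this clone. The 3 minimal medium cultures were grown at 20 °C with 1% dextrose, 1% maltose and 0.5% ammonium sulfate as the nitrogen source. Other libraries served only for comparison: the same clone in 10% wort with 1 mM zinc sulfate at 13 °C, 3 libraries on day 2 and 3 on day 4, and the mutant CBS1538 11.1, obtained by the same treatment and selection, in the same minimal medium (3 libraries).

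Lager yeast arose from a cross between the ale yeast S. cerevisiae and the cold-tolerant S. eubayanus, and it carries chromosomes of both parents in unequal numbers. Some chromosomes have exchanged arms, and others exist in a form that joins pieces of both species. Most genes are therefore present as a pair of diverged copies in the same cell, which share the cell's transcription factors but keep their own promoters and their own chromosome dose. The RNA ratio of a pair holds both parts, which is why each ratio below is set against the median of its chromosome pair. DNA was not measured, so a difference in the number of copies and a difference in RNA per copy cannot be told apart.

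The 3 libraries held 19467656, 16853583 and 16930612 counts, of which 84.5% fell on the 3999 pairs. Between 32.1% and 33.1% of the counts of a library were on the S. eubayanus sub-genome. In CBS1538 11.1 that share was 88.6% to 89.4% in the same medium. Counts on a copy from a chromosome that is otherwise almost silent were read from CBS1538 11.1, in which 9 S. cerevisiae chromosomes had almost no counts, over 2025 pairs with at least 1000 counts. Left out were 4 pairs on these chromosomes with counts on the S. cerevisiae copy only. The 95th percentile of the share on the S. cerevisiae copy was 0.232%, and 12 pairs exceeded 1%, led by HXT3 (27.5%), RPL22A (14.6%) and SSB1 (5.75%). Of 338 pairs that departed 2-fold or more from their chromosome-pair median and had such a value, 1 exceeded 1%. This control reads only counts on the S. cerevisiae copy. It does not cover S. cerevisiae reads counted on an S. eubayanus copy.

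Across the whole genome the S. cerevisiae copy was the higher one. The median copy ratio was 0.90 in each of replicates 1, 2 and 3, a mean of 0.90 ± 0.0042 (SD, n = 3) or 1.87-fold. The S. cerevisiae copy was higher in 3204 of the 3999 pairs, or 80.1%. The middle part of the distribution, from the 5th to the 95th percentile, ran from -0.87 to 2.48. The S. cerevisiae copy was at least 2-fold higher in 1857 pairs and at least 4-fold higher in 434, against 165 and 38 pairs for the S. eubayanus copy.

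The 20 chromosome pairs with at least 10 gene pairs spread from a median of 1.59 to -0.71, each named here by its S. cerevisiae and then its S. eubayanus chromosome. Of these, 15 lay above 0 in all libraries, 3 below 0, and 2 spanned 0. The highest group held II/IV at 1.59 ± 0.036, VII/VII at 1.54 ± 0.011, XI/XI at 1.52 ± 0.019, XIV/XIV at 1.47 ± 0.030, IX/IX at 1.47 ± 0.010 and IV/IV at 1.45 ± 0.020 (SD, n = 3). These are close to a 3-fold higher S. cerevisiae copy. Next came VIII/XV at 1.33, XVI/XVI at 1.14, X/X at 1.04 and XIII/XIII at 1.00, each above the next by more than the spread of the libraries. V/V (0.89), VIII/VIII (0.85) and XV/XV (0.81) followed and overlapped with their neighbours. IV/II stood at 0.54 and II/II at 0.49.

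Both copies were nearly level on III/III, where the 3 libraries gave -0.012, 0.061 and -0.038, and on XII/XII at -0.0092 ± 0.012. XV/VIII lay slightly lower at -0.089 ± 0.012. The S. eubayanus copy was the higher one on VI/VI, at -0.54, -0.48 and -0.51 in the 3 libraries, and on I/I, at -0.68, -0.76 and -0.69. Of the 19 neighbours in this order, 12 did not overlap and 7 did. II/IV, VII/VII and XI/XI overlapped in turn, as did XIV/XIV, IX/IX and IV/IV, so their order is not resolved beyond the spread.

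**Figure D1:**
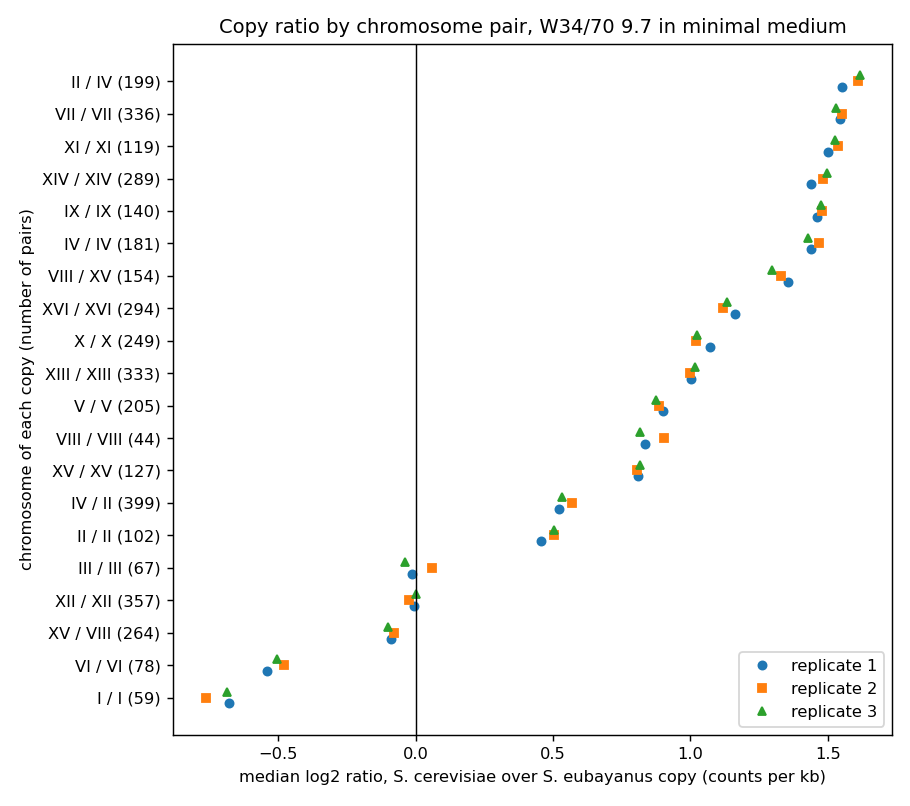
Median log2 copy ratio (S. cerevisiae over S. eubayanus, counts per kb; x axis) of each chromosome pair (y axis, with its number of gene pairs) in the 3 minimal medium libraries of W34/70 9.7. II/IV sits highest at 1.59, III/III and XII/XII lie near 0, and I/I is lowest at -0.71.

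Whole stretches had almost all counts on one copy. These are runs of at least 5 neighbouring pairs with one copy under the count minimum. The S. eubayanus copy was the one under the minimum in 9 such runs with 244 pairs. On S. cerevisiae chromosome XI they covered 48 pairs from 31082 to 162335, 66 pairs from 166400 to 326112 and 11 pairs from 328118 to 352624. On chromosome VII they covered 49 pairs from 23935 to 147389, which include HXK2, a hexokinase, and 5 pairs from 157906 to 175345. On chromosome III, 34 pairs from 201174 to 289258 had 7, 15 and 9 S. eubayanus counts in all, against 56048, 43696 and 47520 S. cerevisiae counts. Chromosome XIII had 10 such pairs from 874987 to 902413, and chromosome XVI had 14 from 30079 to 74719 and 7 from 76669 to 96258. The opposite case was a single run of 25 pairs on chromosome XVI from 864449 to 919041, with 1 S. cerevisiae count in each library against 70671, 58424 and 64811 S. eubayanus counts. Coordinates are those of the deposited table, and the submitters' processing notes name build R64.

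Between or beside these runs sat 5 genes that passed the count minimum with under 1% of their counts on the S. eubayanus copy. They hold the largest copy ratios of all. The glycolytic enzymes GPM1 (phosphoglycerate mutase, chromosome XI) and FBA1 (fructose-bisphosphate aldolase, XI) had ratios of 12.12 and 11.21. GPM1 had 28, 13 and 8 S. eubayanus counts against 75060, 74506 and 51364 S. cerevisiae counts. The ribosomal protein genes RPL36B (XVI) and RPS26A (VII) had 0.0780% and 0.103% of their counts on the S. eubayanus copy, and XRN1, an exonuclease of mRNA decay (VII), had 0.799%. The part of wrong-copy counting in these 5 ratios was not tested. ARO8, an aromatic aminotransferase of chromosome VII, had a mean of 9139 S. cerevisiae counts and 0 S. eubayanus counts and so has no ratio.

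The chromosome-pair medians also hid steps along the chromosomes. Segments were found after the data were seen, as stretches of at least 10 pairs whose median differed by at least 0.5 from the neighbouring stretch. There were 33 segments, and 8 of the 20 chromosome pairs had more than 1. S. cerevisiae chromosome X changed level between 457774 and 458077, from 1.44 ± 0.025 over 151 pairs to -0.041 ± 0.046 over 98 pairs. On chromosome VIII a step of the same kind lay between 436948 and 437170, from 1.49 ± 0.031 over 117 pairs to -0.081 ± 0.071 over the last 37. Chromosome XVI went from 1.44 to 0.48 between 557837 and 564007, and chromosome XIII from 0.60 to 1.40 between 370517 and 379586.

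Chromosome IV had the most levels. The first 40 pairs, up to 116866, were level at 0.018 ± 0.085, the next 48 stood at 1.58 ± 0.025, and 31 pairs from 236157 to 310122 stood at 3.44 ± 0.017, or 10.8-fold. Beyond them 62 pairs returned to 1.44 ± 0.058, and the part paired with S. eubayanus II stood near 0.54. In the 31-pair block all S. cerevisiae copies were the higher ones and 30 exceeded 4-fold. Levels are given as CPM per kb, which is library-scaled counts divided by feature length. The median S. cerevisiae level there was 37.0 CPM per kb, within the 20.1 to 47.6 of the other parts of IV/IV, whereas the median S. eubayanus level was 3.75 against 15.8 to 25.4. The same 31 pairs had medians of 3.40 to 4.09 in the 6 wort libraries of the clone. Smaller blocks were 12 pairs on chromosome VII from 249869 to 274322 at 2.66, 18 pairs on XV from 977194 to 1023212 at -1.02 and 10 pairs on IV from 1334821 to 1358902 at -0.58.

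The levels of several chromosomes differed between cultures. In the minimal medium libraries the distal part of X stood between -0.081 and 0.0090. In wort day 2 replicate 2 and day 4 replicate 1 it stood at 0.94 and 0.90, beside 0.61 and 0.95 for the proximal part. These are the 2 wort libraries in which the S. eubayanus copies of chromosome VII were almost without counts, and XII/XII stood at -1.31 and -1.04 in them. The longest segment of IV/II stood at 0.55 to 0.58 in minimal medium and at 0.40 and 0.57 in replicate 3 of day 2 and day 4, but at 1.40 to 1.96 in the other 4 wort libraries. I/I stood at -1.87 in day 2 replicate 1 and at -1.56 in day 4 replicate 2.

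**Figure D2:**
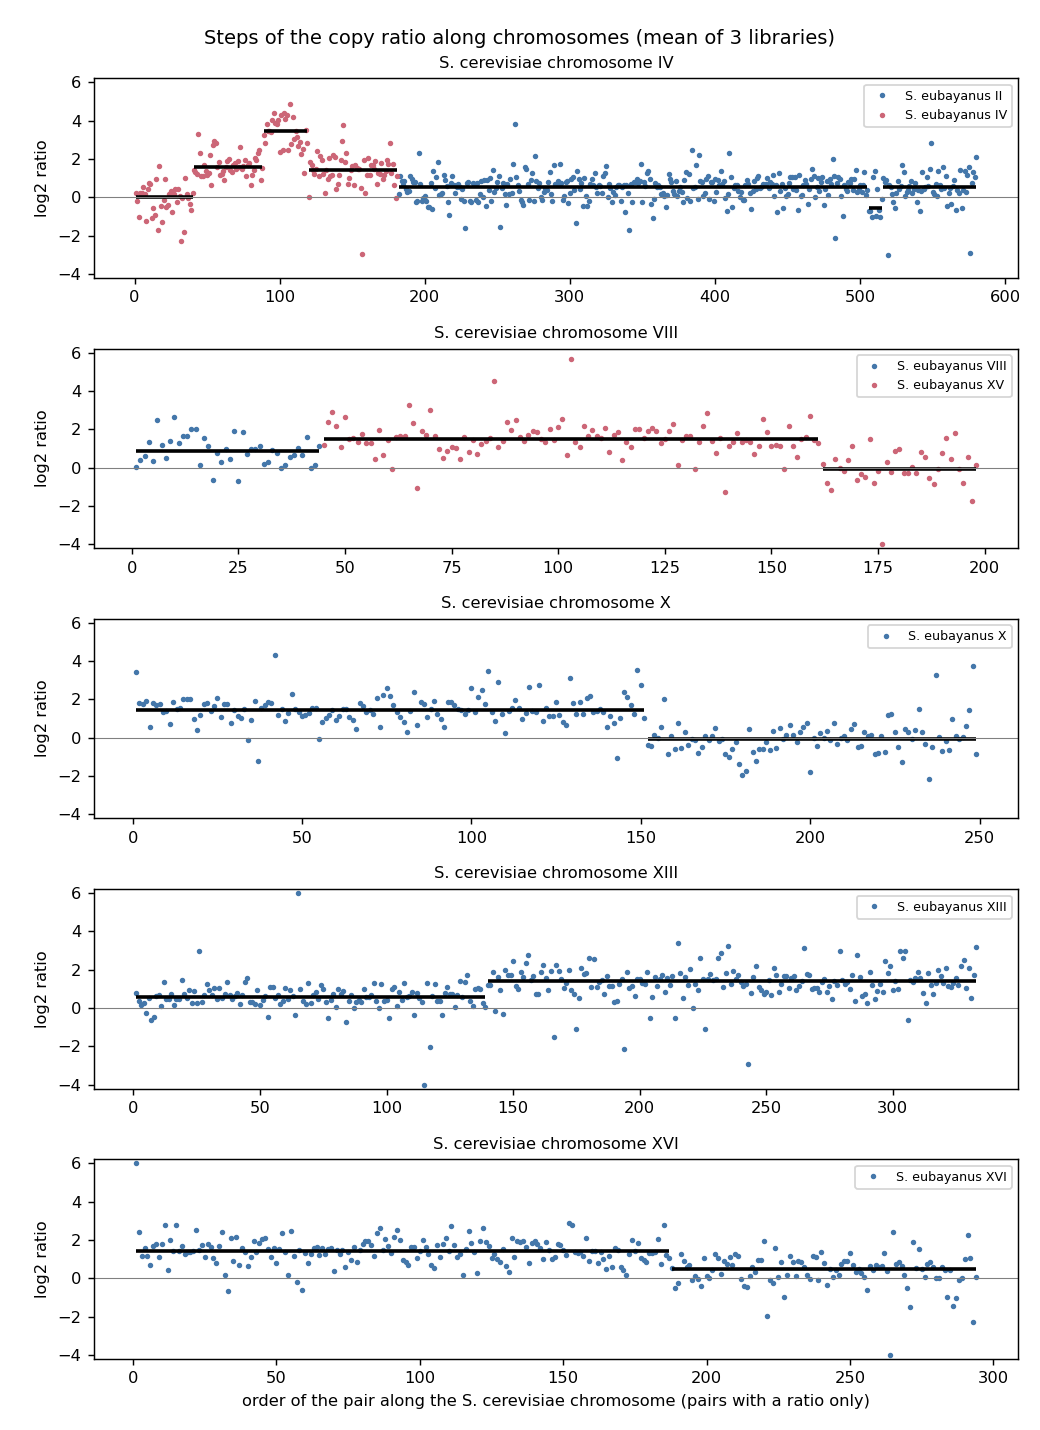
Mean log2 copy ratio over 3 libraries (y axis; values past 6 or -4 drawn there) of each gene pair in its order along 5 S. cerevisiae chromosomes (x axis), coloured by the S. eubayanus chromosome of the partner, with black lines at the segment medians. Chromosome IV rises from 0.018 to 1.58 and 3.44 and returns to 1.44, and VIII and X step from 1.49 and 1.44 down to -0.081 and -0.041.

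The departure of a pair is its fitted log2 ratio minus the chromosome-pair median, tested with edgeR's quasi-likelihood test at a Benjamini-Hochberg adjusted p under 0.05. Of 3999 pairs, 2875 departed (71.9%), 1427 above (35.7%) and 1448 below (36.2%). By 2-fold or more, 714 departed (17.9%), 321 above (8.03%) and 393 below (9.83%). Small departures pass such a test in deep libraries, so the 2-fold count is given as well. Single genes are given with the size of their departure. In the lists, above and below count called pairs of any size unless 2-fold is stated. The median absolute departure was 0.45, about 3 times the median SD of a pair over the libraries, 0.15. All 714 pairs lay on the same side in the 3 libraries, as did 3257 (81.4%) of all pairs. The 714 were called from these same libraries, so their agreement is no separate check. A departure below the median is not the same as a higher S. eubayanus level, which only 313 of the 714 pairs had.

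Against the segment median, a reference chosen after seeing the data, 2707 pairs departed (67.7%), 556 of them by 2-fold or more (13.9%), and 505 pairs were in both 2-fold sets. The segment value is given below wherever it turns or ends a departure or moves it by 0.5 or more on the log2 scale. The counts near the minimum were few: PHM6 entered with means of 32.7 and 10 counts and CRF1 with 10.7 and 42.3, while SDP1 (135 and 9.67) and RSB1 (9.33 and 696) stayed out, each given as S. cerevisiae and then S. eubayanus counts.

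Departures of 2-fold or more were found at all expression levels, in 20.3% of the 1000 pairs with the lowest summed level and 16.6% of the 1000 with the highest. Within 30 kb of a chromosome end the share was 23.6% of 72 pairs, from 30 to 100 kb 21.3% of 699, and further in 17.0% of 3228. Against the segment medians these shares were 16.7%, 15.2% and 13.6%. Where the annotated lengths of both copies were unlike (a ratio outside the limits set for named genes), 38.8% of 129 pairs departed by 2-fold or more, against 17.2% of the other 3870. An annotation that starts or ends a copy elsewhere moves its counts per kb, and its part in those ratios was not tested.

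**Figure D3:**
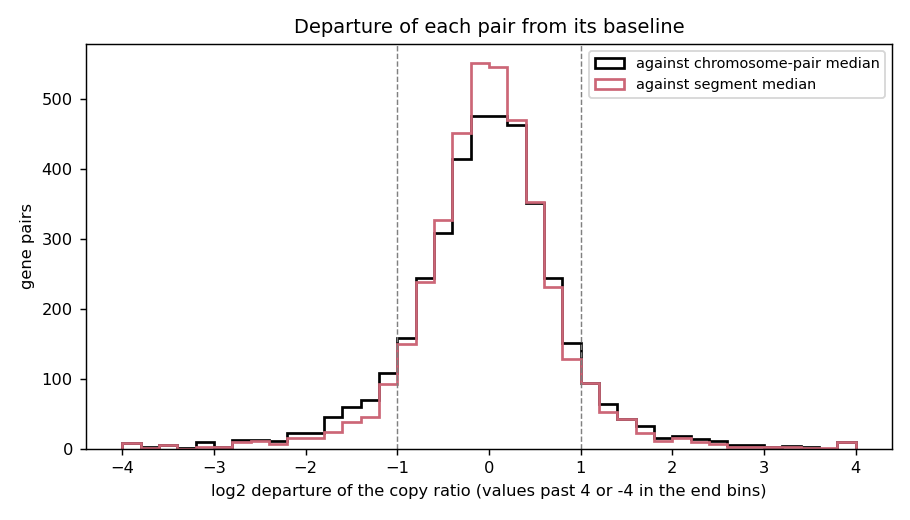
Number of gene pairs (y axis) by log2 departure of the copy ratio (x axis) from the chromosome-pair median (black) and from the segment median (red), with dashed lines at 2-fold. 714 pairs lie past the dashed lines and are called against the chromosome-pair median, and 556 against the segment median.

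The 10 highest and 10 lowest departures are given for pairs with at least 100 counts on the lower copy, similar annotated lengths and no repeated family. The highest was YHB1, a flavohaemoglobin that removes nitric oxide. Its S. cerevisiae copy had 751, 875 and 675 CPM per kb in replicates 1, 2 and 3, and its S. eubayanus copy 26.6, 24.8 and 17.1. The levels did not overlap, and the departure was 3.54 ± 0.098 (SE), or 11.6-fold. SNA3, a vacuolar sorting adaptor on chromosome X, had copy ratios of 4.56, 4.62 and 3.78 and a departure of 3.28 ± 0.14. RPL1B, a protein of the large ribosomal subunit on VII, had ratios of 4.70, 4.32 and 4.74. Its departure was 3.04, or 1.93 against its segment, which is the 12-pair block of chromosome VII.

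CYC3 attaches haem to cytochrome c. It lies on chromosome I, where most pairs favour S. eubayanus, yet its S. cerevisiae copy was higher, with ratios of 2.15, 2.49 and 2.00 and a departure of 2.92 ± 0.11. CCW12, an abundant cell wall mannoprotein, had 11919, 13460 and 11136 CPM per kb on the S. cerevisiae copy and 1702, 1725 and 1944 on the S. eubayanus copy. Its departure of 2.77 ± 0.084 equals its ratio, since chromosome XII is level. TDH3, the main glyceraldehyde-3-phosphate dehydrogenase, had 7391, 7835 and 6019 against 434, 439 and 370. Its departure was 2.55 ± 0.059, and 94.5% of its level came from the S. cerevisiae copy.

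PDI1, the disulfide isomerase of the endoplasmic reticulum, departed by 2.56 ± 0.087, with ratios of 2.55, 2.80 and 2.33. CSR1, a phosphatidylinositol transfer protein, departed by 2.57 ± 0.12. GET3, an ATPase that delivers tail-anchored membrane proteins, and TMA17, a proteasome assembly factor, both lie in the 31-pair block of chromosome IV. GET3 departed by 3.43 from the chromosome pair but by 1.44 from its segment, and TMA17 by 2.57 and 0.58.

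At the other end, MRPL11 of the large mitochondrial ribosomal subunit had 53.4, 44.2 and 57.2 CPM per kb on the S. cerevisiae copy and 277, 241 and 240 on the S. eubayanus copy. Its departure was -3.74 ± 0.10, or -2.31 from its level segment of chromosome IV. TSA2, a stress-induced thioredoxin peroxidase, had 26.1, 31.3 and 24.5 against 190, 262 and 213. Its departure was -3.56 ± 0.095. GNA1, an acetyltransferase of the route to cell wall chitin, had copy ratios of -3.57, -3.49 and -3.71, and its departure was -3.08 ± 0.089 although chromosome VI already favours S. eubayanus.

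GPH1, glycogen phosphorylase, had ratios of -2.17, -2.19 and -2.46 and departed by -3.40, or -2.75 from its segment. It ends at 864014 on chromosome XVI, directly before the run with 1 S. cerevisiae count in each library, which starts at 864449. NHP6A, a chromatin protein of the HMG type, also lies on XVI and departed by -3.13 ± 0.080, or -2.47 from its segment, with ratios of -1.93, -2.01 and -2.02. Among ribosomal protein genes RPL15B was lowest, with ratios of -2.28, -2.15 and -1.96 and a departure of -3.14 ± 0.090.

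The last of the 10 lowest were PHM7 at -3.42, MNS1, a mannosidase of glycoprotein processing, at -3.17, FMS1, a polyamine oxidase, at -3.06, and SET5, a histone methyltransferase, at -3.05. Against their segments MNS1 stood at -2.09 and SET5 at -1.64. The adjusted p of these 20 pairs (edgeR quasi-likelihood) ran from 7.51e-12 (TDH3) to 2.65e-09 (CSR1). The levels of both copies were apart in every library for all 20, which follows largely from choosing the most extreme pairs. RPL1B, RPL15B, TDH3, TSA2 and NHP6A have close paralogs, and how reads shared between paralogs were counted is not given in the sources used here.

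**Figure D4:**
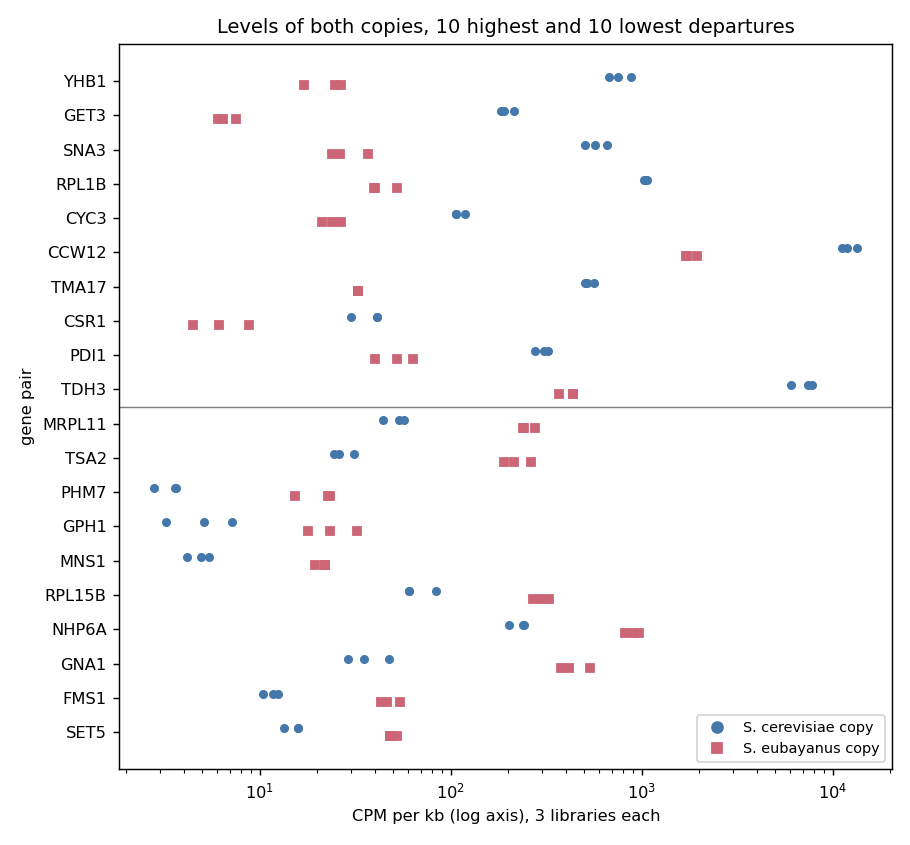
CPM per kb (x axis, log scale) of the S. cerevisiae copy (circles) and the S. eubayanus copy (squares) in each of the 3 minimal medium libraries, for the 10 highest (top) and 10 lowest (bottom) departures. The pairs run from YHB1 at the top to SET5 at the bottom. They were chosen as the most extreme, and the 2 sets of symbols do not overlap in any of them.

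Gene lists were described by counts beside those of all pairs, which were 35.7% above, 36.2% below and a median departure of 0.0015. Glycolysis and fermentation, the route from hexose to ethanol, had 12 of 19 pairs above and 5 below, 8 and 1 of them by 2-fold or more, and a median of 0.83. Without FBA1 and GPM1, which had under 1% of their counts on the S. eubayanus copy, it had 10 above and 5 below of 17, 6 and 1 by 2-fold, and a median of 0.67. TDH2, a paralog of TDH3, departed by 1.70 ± 0.067 and the enolase ENO1 by 1.51 ± 0.080. The other enolase, ENO2, stood at -0.21 against its chromosome pair but at 1.20 against its segment. TDH2 with TDH3 and ENO1 with ENO2 are near-identical paralogs, so the split of reads between them is uncertain.

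The sugar kinases went opposite ways. Glucokinase GLK1 had copy ratios of 2.06, 1.65 and 1.78 and departed by 1.83 ± 0.11, whereas hexokinase HXK1 had -2.41, -3.15 and -2.98 and departed by -2.33 ± 0.13. Both subunits of phosphofructokinase lay above, PFK1 by 0.83 and PFK2 by 1.10, or 0.71 from its segment. At the end of the pathway the pyruvate decarboxylase PDC1 lay below by -0.64 ± 0.070, with the S. eubayanus copy higher in all 3 libraries (ratios -0.74, -0.80 and -0.42). In CBS1538 11.1, 2.74% of PDC1 counts fell on the S. cerevisiae copy, whose chromosome had almost no counts there. CDC19, the main pyruvate kinase, did not depart (0.049 ± 0.066, adjusted p = 0.518), and its ratios of -0.67, -0.83 and -0.48 are close to the -0.71 of chromosome I. ADH1, the fermentative alcohol dehydrogenase, stood at -0.26.

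Storage carbohydrate genes lay mostly below. Of 15 pairs for trehalose and glycogen, 1 lay above and 9 below, 1 and 4 by 2-fold or more, with a median of -0.64. Glycogen synthase GSY1 departed by -1.17 ± 0.090 and glycogenin GLG1 by -1.57 ± 0.11. The trehalase gene ATH1 departed by -1.10, or -0.44 from its segment. The exception was TPS3, a regulatory subunit of trehalose synthesis, at 1.44 ± 0.092. The tricarboxylic acid cycle had 6 of 16 pairs above and 7 below, with LSC2 (succinyl-CoA ligase) lowest at -1.55. The respiratory chain and ATP synthase had 11 of 33 above and 14 below, 2 and 5 by 2-fold, from COX26 at 3.28 to CYC7 at -1.92. The S. eubayanus copy of COX26 had only 21, 46 and 10 counts.

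Genes of aromatic amino acids and flavour were fixed as a set of 24, since the clone was selected on phenylalanine analogues, and 21 had a ratio. ARO9 and ATF1 were not single pairs. The aromatic synthesis list had 1 of 12 pairs above and 8 below, with a median of -0.26 and only ARO1 off by 2-fold. ARO1, the multi-activity enzyme of the shikimate pathway, had ratios of 1.68, 1.48 and 1.54 and departed by 1.03 ± 0.080. The DAHP synthases that open the pathway differed: ARO3 departed by -0.76 ± 0.073 and ARO4 stood at -0.022 ± 0.071 (adjusted p = 0.791). ARO2, chorismate synthase, departed by -0.37, and TRP4 by -0.24. ARO7, chorismate mutase, stood at -0.28, which turned to 0.38 against its segment of chromosome XVI. PHA2 and TYR1, which lead to phenylalanine and tyrosine, stood at 0.088 and 0.21 and did not pass the test (adjusted p = 0.482 and 0.0711).

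The Ehrlich pathway turns amino acids into fusel alcohols, and ester synthases turn alcohols into esters. This list had 6 of 13 pairs above and 6 below, 3 each by 2-fold or more, or 2 and 1 by 2-fold against segments. The decarboxylase ARO10 and its activator ARO80 departed by 0.39 and 0.41. SFA1, an alcohol dehydrogenase, had ratios of 3.09, 2.70 and 2.77 and departed by 1.41 ± 0.094. The ester synthases EEB1 and EHT1 departed by 1.33 ± 0.090 and 0.81 ± 0.076. ATF2, an alcohol acetyltransferase, departed by -1.55 ± 0.12, with ratios of 0.27, -0.35 and 0.016, so both copies were at the same level on a chromosome pair that otherwise favours S. cerevisiae. The esterase IAH1 departed by -0.30.

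The branched-chain aminotransferases BAT1 and BAT2 departed by -1.18 and -1.91. Both lie beyond steps: against their segments BAT1 stood at 0.23 (adjusted p = 0.0740) and BAT2 at -0.83. The branched-chain list, with these, had 5 of 12 pairs above and 5 below. LEU4, the first enzyme of leucine synthesis, departed by 0.36. ILV3 departed by -1.04, or 0.037 from its segment, and LEU2 by -0.82 ± 0.083.

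Other synthesis lists held pairs on both sides. Lysine had 5 of 9 above and 2 below, with LYS1 at 1.19. Arginine had 5 of 9 above and 3 below, with ARG4 at 1.59. Histidine had 5 of 7 above and 1 below, with HIS3 at 1.58, and purines 6 of 11 above and 3 below with none at 2-fold. Sulfate assimilation and methionine had 6 of 21 above and 4 below, from SAM1 (S-adenosylmethionine synthetase) at 2.09 to MET8 at -1.93. Ergosterol had 11 of 26 above and 8 below. Its highest pair was ERG8 at 2.11, whose copies are annotated at 1356 and 809 bases, and its lowest was ERG9, squalene synthase, at -1.61, or -0.20 from its segment (adjusted p = 0.0648).

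Uptake genes showed wide departures. Of 10 amino acid permeases, 2 lay above and 7 below, 2 and 5 by 2-fold or more, with a median of -0.68, or -0.27 against segments. GAP1, the general permease that nitrogen supply controls, had ratios of -0.98, -0.79 and -0.99 on chromosome XI and departed by -2.44 ± 0.081. PUT4, for proline, departed by -3.12, or -2.19 from its segment, and AGP1 by -1.23. The S. cerevisiae copy of PUT4 had only 41, 32 and 41 counts. The high-affinity methionine permease MUP1 went the other way, with ratios of 6.37, 6.49 and 5.74 and a departure of 4.58 ± 0.17. Its S. eubayanus copy had only 9, 9 and 27 counts, near the count minimum, so the size of its ratio is uncertain. Of its level, 98.6% came from the S. cerevisiae copy. TAT2, for tryptophan and tyrosine, departed by 1.53.

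For ammonium, 4 of 13 pairs lay above and 7 below. Among the permeases MEP1 departed by -1.38 ± 0.12 and MEP2 by -0.18, which was not called in the fit with segment medians (adjusted p = 0.0517). The chromosome pair of MEP2, XIV/XIV, has 1 segment, so its reference was the same in both fits. GDH1, the main glutamate dehydrogenase, departed by 0.74, and its paralog GDH3 by -2.35 ± 0.20. The S. cerevisiae copy of GDH3 had only 41, 20 and 22 counts. Zinc genes had 2 of 4 above and 1 below, with the vacuolar transporter ZRC1 at 1.74 ± 0.070. Iron genes had 4 of 8 above and 2 below, with FTR1 at 1.00, and FRE1 at 1.62 with annotated lengths of 2061 and 574 bases. Maltose and hexose uptake kept 2 of 5 pairs, the glucose sensors RGT2 at 0.34 and SNF3 at -1.78, which stood at 0.21 (adjusted p = 0.0822) and -0.35 against their segments.

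The 2 genes of Hsp90, the chaperone that radicicol binds, both favoured the S. cerevisiae copy. HSC82 had 770, 703 and 869 CPM per kb on the S. cerevisiae copy and 85.7, 66.2 and 97.9 on the S. eubayanus copy, a departure of 2.24 ± 0.075. HSP82 departed by 1.28 ± 0.092, or 0.98 from its segment. The 2 genes are near-identical paralogs. Of the 12 pairs of Hsp90 and its co-chaperones, 4 lay above and 3 below, 4 and 1 by 2-fold, or 3 and 0 by 2-fold against segments. The other 2-fold pairs were the co-chaperone CNS1 at 1.01, the heat-shock regulator HSF1 at 1.23 and the cyclophilin CPR7 at -1.59 (-0.51 from its segment). Hsp70 and J-proteins had 5 of 16 above and 4 below, with SSE2, a nucleotide exchange factor, at -2.71 and SSA4, a stress-induced Hsp70, at 1.15.

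Several lists of large complexes held few 2-fold departures, beside the 17.9% of all pairs. The proteasome had 14 of 30 above and 7 below and 1 at 2-fold. That one, RPN6, lies in the 31-pair block and turned from 1.57 to -0.42 against its segment. Ribosome biogenesis had 17 of 90 above and 48 below, with none above and 3 below by 2-fold and a median of -0.23. Against segments 0 lay off by 2-fold and the median was -0.20. Mitochondrial ribosomal proteins had 22 of 59 above and 19 below, 1 and 2 by 2-fold. Translation factors and tRNA synthetases had 17 of 48 above and 17 below, with TIF1, one of a pair of identical initiation factor genes, at -2.41.

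Cytosolic ribosomal proteins did not lie as close. Of 111 pairs, 43 lay above and 52 below, 10 and 16 by 2-fold or more, with a median of -0.0057 and a median absolute departure of 0.52. Many of these genes have a paralog in the same sub-genome, so the split of their reads is uncertain. The highest pair was RPL36B at 8.05, whose copies are annotated at 541 and 246 bases. RPL36B and RPS26A (7.35) are among the genes with under 1% of their counts on the S. eubayanus copy, so the size of their departures is uncertain. Nuclear RNA polymerase subunits had 12 of 28 above and 8 below, from RPB11 at 2.15 to RPB10 at -1.37. DNA replication had 10 of 39 above and 21 below. Its highest pair, POL3, the catalytic subunit of polymerase delta, lies in the 31-pair block and stood at 2.80 and, against its segment, at 0.81. Histones had 4 of 10 above and 4 below, and the linker histone HHO1 at 1.40 was the one pair off by 2-fold.

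Cell wall mannoproteins had 3 of 6 above and 3 below, 2 and 2 by 2-fold. SED1, a wall protein of stationary cells, had ratios of -1.44, -1.62 and -1.69 and departed by -2.13 ± 0.070, the opposite side to CCW12. Genes of programmes that vegetative cells leave off often missed the count minimum. Sporulation and meiosis kept 10 of 19 pairs, with 3 above and 4 below, and the lowest departure of all pairs, SSP1 at -6.56 ± 0.16, or -5.15 from its segment. Its S. cerevisiae level was 0.562 and its S. eubayanus level 21.2 CPM per kb. The S. cerevisiae copy of SSP1 had only 16, 15 and 20 counts, near the count minimum, so the size of its ratio is uncertain. Haploid and mating genes kept 7 of 16, with none above and 6 below, 5 by 2-fold, from STE4 at -0.15 to FUS1 at -2.57. The S. cerevisiae copy of FUS1 had only 12, 19 and 9 counts. Members of these lists passed the count minimum on both copies, so the rest of each list is not described by these counts.

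**Figure D5:**
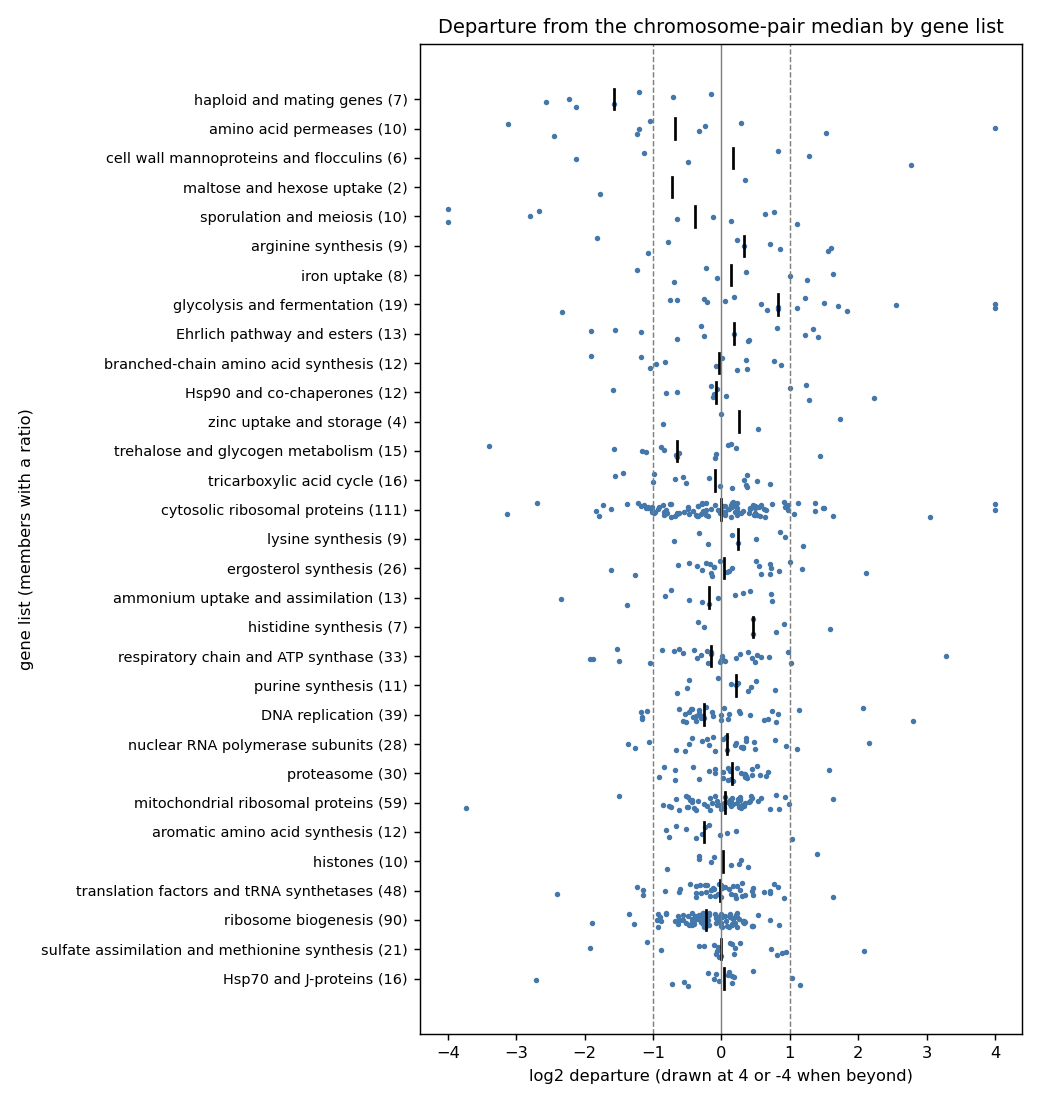
Log2 departure from the chromosome-pair median (x axis; drawn at 4 or -4 when beyond) of each gene pair in 31 gene lists (y axis, with the number of pairs that have a ratio), ordered by median absolute departure, with black bars at list medians and dashed lines at 2-fold. Amino acid permeases and mating genes spread widely, while ribosome biogenesis has 3 of 90 pairs past 2-fold.

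Other libraries were used to see how far the ratios of the minimal medium cultures held. In the same clone in wort, over 3663 pairs and without chromosome VII, the difference between conditions was tested with edgeR's interaction of copy and condition. On day 2, 1663 pairs differed from minimal medium (45.4%), 759 by 2-fold or more (20.7%), and on day 4 1054 (28.8%), 403 by 2-fold or more (11%). Without minimal medium replicate 1 or replicate 2 the day 4 count was 673. Both comparisons share the minimal medium libraries. Of 667 pairs off by 2-fold in minimal medium, 490 (73.5%) lay on the same side of the chromosome-pair median in all 6 wort libraries. Over all 3663 pairs the same share was 45.6%. Steps within a chromosome pair enter these departures, so pairs of the same block can stay or move together. Some day 2 and day 4 libraries also shared chromosome levels, so the 6 wort libraries may not be independent. Across pairs the departures in minimal medium correlated with those in wort at r = 0.63 on day 2 and 0.72 on day 4. This is a description over pairs that share libraries and blocks.

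Among the named pairs, RPL15B, NHP6A, PHM7, SET5 and MRPL11 kept the low side in wort, with day 2 mean departures of -1.66, -3.27, -2.75, -2.63 and -4.77. CCW12 and PDI1 kept the high side at 2.07 and 1.59. Of these pairs, only NHP6A did not differ in size from minimal medium on day 2 (interaction test, adjusted p = 0.605). CSR1 went from 2.57 to a day 2 mean of 0.16, and GNA1 from -3.08 to -1.29. TSA2 and FMS1 did not keep their side in the mean: TSA2 went from -3.56 to 1.96 on day 2 and FMS1 from -3.06 to 0.37. The day 2 libraries of TSA2 all lay above the median, but those of FMS1 did not all do so.

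In CBS1538 11.1 in minimal medium both copies could be compared on chromosomes I, IX, X and XIV, over 725 pairs and against segment medians. Of 96 pairs off by 2-fold there in W34/70 9.7, 70 (72.9%) lay on the same side in all 3 CBS1538 11.1 libraries, against 55.2% of all 725. The departures of both clones correlated at r = 0.54 across pairs. In CBS1538 11.1, CYC3 stood at 1.61 and MNS1 at -0.13.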

How the data were processed

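The counts in the authors' single deposited table are whole numbers per feature and were not scaled. STAR, SAMtools, featureCounts, DESeq2 and build R64 are named in the submitters' processing notes. No source used here gives their versions, the S. eubayanus assembly, the use of strand or the treatment of reads that match several places, so overlapping genes cannot be separated. Reads were paired, 150 bp. Feature lengths span introns. All 18 count columns were used in some step (0 were left out), and groups came from the titles. Whether replicates were separate cultures is stated only as triplicate growth, so p-values measure the spread between these libraries. No pair of replicates was a duplicate (chi-square per degree of freedom 17.8 or more).

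Per pair, 6 values (2 copies in 3 libraries) were fitted with edgeR 4.0.16 in R 4.3.3, with the library as a block and offsets for library total, feature length and the chromosome-pair median of that library. The 3 pairs on chromosome pairs with under 10 members took the median of all pairs. Per-library ratios add 0.5 to each count. The fit was also run on simulated counts with 200 changed pairs, a fixed dispersion and no steps along the chromosomes. That run cannot show how the calls behave where a chromosome has steps. Alternatives used limma 3.58.1 and DESeq2 1.42.0. The members, the 31 lists (978 symbols) and the rule for named genes (the 10 highest and 10 lowest departures, the extremes of each list and a fixed set of 24) were chosen with earlier results of these data known. One list extreme is not reported here.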

Additional observations from a re-analysis of the deposited data

Results flagged for a closer look

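Named pairs or list members were flagged when all 3 minimal medium libraries lay on one side of the chromosome-pair median, all 3 wort libraries on the other, and the copy by condition interaction passed in edgeR's quasi-likelihood test (adjusted over 3663 pairs). Over all pairs 441 (12%) did so on day 2 and 315 (8.60%) on day 4. Each value below is the fitted log2 difference in departure, minimal medium minus wort. It can differ from the difference between the mean departures. Both comparisons share the 3 minimal medium libraries.

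Among flavour and amino acid genes, ARO10 differed by 2.23 on day 2 and 1.85 on day 4, LEU4 by 1.33 and 1.03, and EHT1 by 1.57 on day 4. ARO3 differed by -1.95 and -1.99, from a mean of -0.76 in minimal medium to 1.19 and 1.23 in wort, and IAH1 by -0.83 on day 2. The permease TAT2 differed by 2.16 on day 2 and MUP3 by -1.10 and -1.77.

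Among fermentation genes, PDC1 differed by -2.23 and -1.63, from -0.64 in minimal medium to 1.58 and 0.99 in wort. PGI1 differed by 0.82 on day 2, ADH1 by -0.47 and -0.71, and ADH5 by 0.85 and 0.68, although ADH5 itself did not depart in minimal medium (0.18, adjusted p = 0.0855). The glucose sensor RGT2 differed by 1.88 and 1.58.

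TSA2 differed by -5.50 on day 2, from -3.39, -3.63 and -3.65 to 2.62, 0.75 and 2.52. FRE1 differed by 3.95 and 2.69, GDH3 by -2.54 on day 2, and SPO11 by 4.55 and 2.48. SPO11 was in the lowest range of levels. Its mean departures were 1.14 in minimal medium and -4.74 on day 2, where the libraries stood at -8.10, -2.64 and -3.47.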

How the results depend on the processing

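The 2-fold count was 556 to 774 under every alternative except the median of all pairs as the reference, which gave 1225. The count of all departures was 2091 to 3277, except with a test against a 1.5-fold departure (glmTreat), which gave 1100. Leaving out 1 replicate gave 2365 to 2845 departures and 686 to 742 of 2-fold or more. The median of all pairs was 0.92 without length scaling, 0.89 with at least 50 counts, 0.91 with at least 1 count and 0.91 with similar lengths only, each past the SD of 0.0042. It was 0.90 without any 1 replicate.

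Of 120 named or list pairs, 85 kept their call and side in every alternative. With the median of all pairs as the reference these turned: ARO2 0.28, ILV6 -0.026, HIS6 0.22, GDH1 -0.25, PGK1 -0.31, ENO2 0.22 and HIP1 0.31. With the segment median, chosen after seeing the data, ARO7 0.38, BAT1 0.23, RPN6 -0.42, PRE10 0.018, ENO2 1.20, PYK2 0.18 and UGA4 0.39 turned. With a running median ARO7 0.34, ENO2 1.14 and UGA4 0.46 turned. The references differ by construction where a chromosome has steps.

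Leaving out 1 library gave 1272 to 1750 pairs that differed from wort day 2 and 673 to 1269 for day 4. The lowest day 4 count, 673 against 1054, came without minimal medium replicate 1 or replicate 2. Without both wort libraries with almost no S. eubayanus VII counts, an alternative added after seeing the data, it was 1978 and 1373. Replicate numbers did not pair the minimal medium with the wort libraries (correlation of same-numbered deviations -0.090 to 0.052). Day 2 was not compared with day 4 in this way. Some of their libraries shared chromosome levels: XII/XII was -1.31 in day 2 replicate 2 and -1.04 in day 4 replicate 1. I/I was -1.87 in day 2 replicate 1 and -1.56 in day 4 replicate 2. Whether wort libraries of both days came from the same cultures was not tested. In limma the replicate block gave 1451 and 793 against 1615 and 945 without it. Without the library block the within-library fit gave 2091 departures. Pairs under about 10 counts on a copy have no usable ratio, so a fully silenced copy is outside these counts.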
